A study of Mus musculus with 6 samples.

Results

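The genes of sphingosine-1-phosphate (S1P) sensing and metabolism were compared between the mouse endothelial cell lines UV2 and bEnd.3. They were chosen by symbol as S1pr1, S1pr2, S1pr3, S1pr4, S1pr5, Sphk1, Sphk2, Spns2, Sgpl1 and Sgpp1, and all 10 were found among the 24411 genes of the count table. The series holds 6 bulk RNA-seq libraries, 3 of UV2 and 3 of bEnd.3. UV2, also written UV♀2, has the strain (BALB/c x C57BL/6)F1. The labels name no tissue of origin for UV2. bEnd.3 is of strain BALB/c and is known as a line from brain endothelium, made to grow without limit by the middle T antigen of polyomavirus. The labels list no agent and no altered gene for either line. Confluent cells of both were washed and kept without serum for 3 days on 10-cm dishes, and no purpose of the comparison was stated. Each line is a single immortalised line, and the labels do not tie its 3 libraries to separate cultures. The p-values therefore reflect only the spread among these libraries, which may be technical. Library totals were 21306441 to 28748128 expected counts.

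S1P is a signalling lipid made inside cells when a sphingosine kinase (Sphk1 or Sphk2) phosphorylates sphingosine. Endothelial cells export it through the transporter Spns2, and it then acts on G protein-coupled receptors, S1pr1 to S1pr5. Inside the cell, the phosphatase Sgpp1 returns it to sphingosine and the lyase Sgpl1 cleaves it irreversibly. In endothelium S1pr1 is known for holding junctions closed and limiting sprouting through Gi and Rac, whereas S1pr2 and S1pr3 couple to several G proteins, G12/13 among them.

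The labelled cell type was checked against 10 endothelial markers, whose summed level was 11720 to 13330 CPM in UV2 libraries and 12950 to 13700 CPM in bEnd.3 libraries. CPM are counts scaled to a common library size, the total after the trimmed mean of M-values (TMM) correction. Cldn5, a claudin of tight junctions in endothelium, was nearly absent from UV2, with 0.262 ± 0.0736 CPM in UV2 and 1052 ± 63.3 CPM in bEnd.3 (SD, n = 3 each). Of the 10 endothelial markers, 4 were called lower in UV2 (Cldn5, Emcn, Egfl7 and Erg) and 1 higher (Tie1), and 5 did not pass. That is 50% called, against 67.1% of all tested genes. Some markers of other cell types also differed between the lines. Their summed level was 3.70 to 6.30 CPM in UV2 and 0.570 to 0.883 CPM in bEnd.3 for 8 mural markers, of which Des was at 0 in every library and Pdgfrb was the only one tested (called higher). Of the untested mural markers, Acta2 and Rgs5 had 39 and 2 counts over the UV2 libraries and 0 in bEnd.3. Myh11, Notch3 and Cspg4 went the other way, with 4, 1 and 1 counts in UV2 and 16, 11 and 7 in bEnd.3. Kcnj8 had 4 in each line. For 6 fibroblast markers the summed level was 27.1 to 67.2 CPM in UV2 and 3.12 to 3.46 CPM in bEnd.3, nearly all from Pdgfra and Col3a1, both called higher. For 8 blood cell markers it was 258.7 to 348.6 CPM in UV2 and 99.5 to 167 CPM in bEnd.3, with Cd3e and Hbb-bs at 0 throughout. Nearly all of this sum was Cd68, which held 251.9 to 342.6 CPM in UV2 and 88.9 to 158.3 CPM in bEnd.3, while Itga2b was called lower in UV2 and Csf1r did not pass. For 4 epithelial markers it was 0.127 to 0.501 CPM in UV2 and 0 to 0.0814 CPM in bEnd.3, with Epcam at 0. The part of these transcripts in the results below was not tested. In bulk libraries, fewer cells of a type and less RNA per cell cannot be told apart.

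UV2 and bEnd.3 carried the same outline of the system: abundant S1pr1, the exporter Spns2, the kinase Sphk2 and the lyase Sgpl1, with little of the other receptors and nearly no Sphk1. The receptor S1pr1 and the lyase Sgpl1 were higher in UV2, about 1.82-fold and 2.25-fold, and no gene of the set passed the test as lower. Of the 10 genes, 7 passed the filter on low counts and were tested, and 2 of these were called. Over all 12720 genes tested, 67.1% were called at an adjusted p under 0.05 by the quasi-likelihood test of edgeR, with p-values adjusted after Benjamini and Hochberg (edgeR-QL below). Of all tested genes 33.9% were called higher in UV2 and 33.3% lower. The count of 0 lower genes was also 0 at an unadjusted p under 0.05 with edgeR-QL, DESeq2 and limma-voom. The median log2 fold change of the 7 tested genes was 0.09, and that of all tested genes was -0.01. Libraries of the lines did not overlap for 3 of the 7 genes, S1pr1, Sgpl1 and Spns2, against 73.2% of all tested genes.

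**Figure D1:**
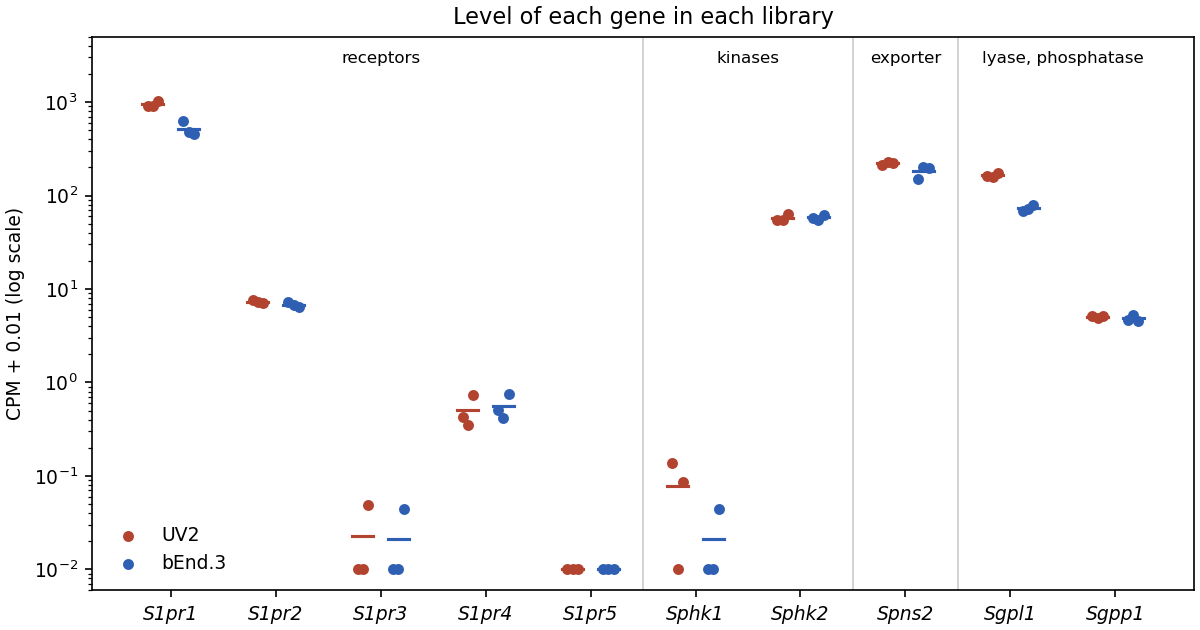
Level of the 10 genes in each library, as CPM plus 0.01 on a log axis, with UV2 left of bEnd.3; points are libraries and bars are means of 3. S1pr1 stands highest among the receptors in both lines, S1pr5 is at 0 in every library, and the UV2 points lie above the bEnd.3 points for S1pr1, Spns2 and Sgpl1.

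Among the receptors, S1pr1 was read far more than the others. It lies on the minus strand of chromosome 3 (115710433 to 115715055 in the GRCm38.p6 RefSeq table, the assembly of mm10), with 2 exonic blocks in GENCODE M21. Its level was 917, 906 and 1017 CPM in UV2 replicates 1, 2 and 3, against 623, 484 and 456 CPM in bEnd.3 replicates 1, 2 and 3. All UV2 libraries stood above all bEnd.3 libraries, and the widest gap within a line was between bEnd.3 replicate 1 and the other two. The log2 fold change, UV2 over bEnd.3, was 0.86 with a standard error (SE) of 0.12, a fold of 1.82 with a 95% interval of 1.49 to 2.22 (adjusted p = 0.000503, edgeR-QL). By mean CPM, S1pr1 ranked above 98.9% of tested genes.

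S1pr2, a receptor that couples to G12/13 among others, lies on chromosome 9 (20965952 to 20976793, minus strand) and was low and close in the lines. It had 7.56, 7.17 and 7.06 CPM in UV2 libraries, against 7.31, 6.72 and 6.42 CPM in bEnd.3 libraries. The ranges overlapped, and the log2 fold change was 0.09 (SE 0.12, 95% interval of the fold 0.882 to 1.29, adjusted p = 0.507, edgeR-QL). S1pr4, known from leukocytes (chromosome 10, 81497745 to 81500137, minus strand), had 10, 7 and 19 counts in UV2 and 11, 10 and 22 counts in bEnd.3. At this depth the interval of its fold was wide, 0.478 to 1.74 (log2 fold change -0.13, SE 0.40, adjusted p = 0.782, edgeR-QL).

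The receptors S1pr3 and S1pr5 could not be compared. S1pr3 (chromosome 13, 51408618 to 51422797, plus strand), which couples to Gi, Gq and G12/13, held 1 count over the UV2 libraries and 1 over the bEnd.3 libraries, in replicate 3 of each line. S1pr5, known from oligodendrocytes and natural killer cells (chromosome 9, 21242917 to 21248443, minus strand), had 0 counts in all 6 libraries. A total of 0 allows a level of up to 0.0427 CPM in UV2 and 0.0393 CPM in bEnd.3, the floor of 3 counts over the libraries of a line. Sequenced reads are not independent molecules, so these limits and the counting intervals below cover counting error only.

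Of the kinases, only Sphk2 was read in quantity in either line. Sphk2, the kinase known from nucleus and mitochondria (chromosome 7, 45709463 to 45718002, minus strand), had 54.3, 54.5 and 63.8 CPM in UV2 libraries, against 58.0, 55.0 and 61.9 CPM in bEnd.3 libraries. These ranges overlapped, and the log2 fold change was -0.02 (SE 0.09, 95% interval of the fold 0.859 to 1.14, adjusted p = 0.864, edgeR-QL). On 539 bases, 12.96% of its exonic length, Sphk2 overlaps Dbp on the opposite strand. The strand setting of the counting is not given in the sources used here. Whether the Sphk2 counts include reads of Dbp, and how many, was not tested. Sphk1, the cytosolic kinase that growth factors activate (chromosome 11, 116530836 to 116536675, plus strand), held 3, 0 and 2 counts in UV2 and 0, 0 and 1 counts in bEnd.3. That is a ratio of 5.43 with a 95% counting interval of 0.608 to 257, and Sphk1 was not tested.

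Sequences before the start sites are shown for read and unread members. Whether their CpG content goes with their level was not tested. RefSeq promoter windows (GRCm38.p6) were matched for 9 of the 10 genes; S1pr1 was not matched. Below are the 250 bases before a start site, 5′ to 3′ on the gene's strand, of a read and an unread gene of each kind: the kinases Sphk2 (chr7:45715208-45715457, minus strand) and Sphk1 (chr11:116532194-116532443, plus strand), and the receptors S1pr2 (chr9:20976794-20977043, minus strand) and S1pr5 (chr9:21248444-21248693, minus strand). Capitals mark CpG dinucleotides. Sphk2 and Sphk1 have several start sites, and a window free of their own exons and of annotated UTRs was taken, which is not the start farthest upstream. The S1pr5 window lies in an exon of Gm48303 on the opposite strand.
Sphk2: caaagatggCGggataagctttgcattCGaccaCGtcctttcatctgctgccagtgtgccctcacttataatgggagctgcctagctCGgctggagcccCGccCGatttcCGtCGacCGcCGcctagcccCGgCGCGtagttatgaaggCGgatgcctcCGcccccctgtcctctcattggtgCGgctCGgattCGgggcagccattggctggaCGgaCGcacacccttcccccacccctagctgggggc
Sphk1: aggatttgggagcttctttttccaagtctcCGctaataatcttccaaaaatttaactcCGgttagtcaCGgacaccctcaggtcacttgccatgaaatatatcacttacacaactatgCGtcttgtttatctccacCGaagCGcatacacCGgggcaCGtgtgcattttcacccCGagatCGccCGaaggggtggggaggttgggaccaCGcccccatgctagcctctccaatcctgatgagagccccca
S1pr2: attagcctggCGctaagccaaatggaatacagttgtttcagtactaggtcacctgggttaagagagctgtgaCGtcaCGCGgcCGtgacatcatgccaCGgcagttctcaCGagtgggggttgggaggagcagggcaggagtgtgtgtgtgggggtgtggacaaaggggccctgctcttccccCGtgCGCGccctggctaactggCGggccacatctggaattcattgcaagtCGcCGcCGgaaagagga
S1pr5: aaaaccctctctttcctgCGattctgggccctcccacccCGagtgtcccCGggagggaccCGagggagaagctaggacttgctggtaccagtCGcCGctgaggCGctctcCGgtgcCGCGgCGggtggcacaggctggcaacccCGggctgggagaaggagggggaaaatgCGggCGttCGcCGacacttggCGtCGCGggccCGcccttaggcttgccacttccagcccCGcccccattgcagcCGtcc

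The read kinase Sphk2 had 20 CpG in this window and 27 in its other one. The barely read Sphk1 had 12 in the window shown and 4, 16, 19 and 12 in its other windows. The order was the other way for the receptors, with 14 CpG before the low but read S1pr2 and 22 before S1pr5, which had no counts. Over all 32851 windows of the table the median was 6 CpG, with quartiles of 2 and 16, and some windows come from the same gene. The window before the lyase Sgpl1, the gene with the largest fold among the 7 tested, held 31 CpG. That of Sgpp1 held 24, that of the abundant Spns2 held 2, and those of S1pr3 and S1pr4 held 9 and 0. The Spns2 window (chr11:72475028-72475277) lies inside the span of the gene, before an internal start site. Bases after the S1pr3 window were not found in a GENCODE transcript of S1pr3. The GC box letters GGGCGG, searched on both strands, occurred 2 times in the windows of Sphk2 and S1pr5 each and 0 times in those of Sphk1 and S1pr2, against 32.7% of all windows with at least 1 match. The letters CACCC on either strand occurred 2, 3, 1 and 2 times before Sphk2, Sphk1, S1pr2 and S1pr5, and 52.0% of all windows held them. The motifs were counted without regard to overlap with each other.

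Spns2, which carries S1P out of endothelial cells, was abundant in both lines and lies on chromosome 11 (72451638 to 72489976, minus strand). It had 215, 228 and 222 CPM in UV2 libraries, against 149.8, 203 and 199 CPM in bEnd.3 libraries. The lines did not overlap, but bEnd.3 replicate 1 lay well under the other two of its line. The log2 fold change of 0.27 (SE 0.12, 95% interval of the fold 0.999 to 1.45) did not pass the test (adjusted p = 0.0727, edgeR-QL). With the replicate number as a block it passed (log2 fold change 0.28, adjusted p = 0.0350, edgeR-QL), and it also passed without bEnd.3 replicate 2 (log2 fold change 0.35, adjusted p = 0.0459). Without bEnd.3 replicate 1 the log2 fold change was 0.14. Of its exonic length, 3.21% overlaps Mybbp1a on the opposite strand.

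Of the members that remove S1P, the lyase Sgpl1 was higher in UV2 and the phosphatase Sgpp1 was close in the lines. Sgpl1 (chromosome 10, 61098642 to 61147684, minus strand) had 162, 159 and 173 CPM in UV2 libraries, against 68.4, 72.1 and 79.2 CPM in bEnd.3 libraries. Every UV2 library had more than 2 times the level of every bEnd.3 library. Its log2 fold change was 1.17 (SE 0.08), a fold of 2.25 with a 95% interval of 1.99 to 2.54 (adjusted p = 8.2e-06, edgeR-QL). Sgpp1, on chromosome 12 (75714248 to 75735729, minus strand), had 5.20, 4.85 and 5.09 CPM in UV2 libraries, against 4.71, 5.29 and 4.51 CPM in bEnd.3 libraries. The ranges overlapped (log2 fold change 0.06, SE 0.14, 95% interval of the fold 0.840 to 1.30, adjusted p = 0.706, edgeR-QL). Sgpp2, a related phosphatase outside the 10 genes and named after its values were seen, was not tested. It had 11, 10 and 11 counts in UV2 libraries and 2, 1 and 2 counts in bEnd.3 libraries.

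To set genes beside each other, expected counts were divided by the merged exon length in GENCODE M21 and scaled to the same sum in every library (TPM). In UV2 the order was S1pr1 (1148 ± 64.8 TPM), Spns2 (200.5 ± 4.23 TPM), Sgpl1 (99.01 ± 3.91 TPM) and Sphk2 (51.1 ± 4.29 TPM; SD, n = 3 each). In bEnd.3 it was S1pr1 (658 ± 106 TPM), Spns2 (174 ± 29.7 TPM), Sphk2 (54.0 ± 3.35 TPM) and Sgpl1 (45.951 ± 3.83 TPM). The order depended on the length used. For other lengths only each member's own length was replaced, and the values were not rescaled to the common sum. The shortest coding transcripts had 421 bases for Sgpl1, 783 for Spns2 and 379 for S1pr2. The longest had 4102, 3241 and 6394 bases, and S1pr1 had 3046 in either case. With the longest coding transcript, Sgpl1 stood above Sphk2 in bEnd.3 as well, at 68.8 and 63.3 TPM. With the shortest, Sgpl1 (1445 TPM) stood above S1pr1 (1148 TPM) in UV2, and Spns2 (906.5 TPM) and Sgpl1 (670.5 TPM) stood above S1pr1 (658 TPM) in bEnd.3. With merged exon lengths, S1pr2 and Sgpp1 lay within their spread of each other, at 3.37 ± 0.173 and 3.299 ± 0.150 TPM in UV2 and 3.29 ± 0.184 and 3.30 ± 0.287 TPM in bEnd.3. With the longest transcript they no longer overlapped, at 4.198 and 5.61 TPM in UV2 and 4.10 and 5.61 TPM in bEnd.3, and with the shortest S1pr2 stood far above Sgpp1, at 70.8 and 5.82 TPM in UV2 and 69.2 and 5.83 TPM in bEnd.3. S1pr4 followed with 0.770 ± 0.313 TPM in UV2 and 0.887 ± 0.290 TPM in bEnd.3. With merged exon lengths S1pr1 made up 99.63% to 99.65% of the TPM of the 5 receptors in UV2 libraries and 99.25% to 99.45% in bEnd.3 libraries.

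The balance between members within a library was compared by log2 ratios of counts, in which gene length cancels between the lines. The ratio of S1pr1 to S1pr2 was higher in UV2, at 6.92, 6.98 and 7.17 in UV2 libraries, against 6.41, 6.17 and 6.15 in bEnd.3 libraries, a difference in means of 0.78 on the log2 scale. For Sgpl1 to Sphk2, a pair added after the values were seen, the log2 ratio was 1.58, 1.54 and 1.44 in UV2 libraries, against 0.239, 0.392 and 0.356 in bEnd.3 libraries. That is a 2.28-fold higher ratio of lyase to kinase counts in UV2. Neither pair overlapped between lines. Each gave p = 0.1 in the exact two-sided permutation test, the smallest p that 3 against 3 allows, and 0.25 adjusted over the 5 ratios computed. The other three ratios rest on the 0 to 3 counts per library of Sphk1 or S1pr3. Their differences were 1.32 for Sphk1 to Sphk2 (exact permutation p = 0.2, adjusted 0.333), 0.13 for Sphk1 to Sgpl1 (p = 1, adjusted 1) and 0.76 for S1pr1 to S1pr3 (p = 0.4, adjusted 0.5).

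**Figure D2:**
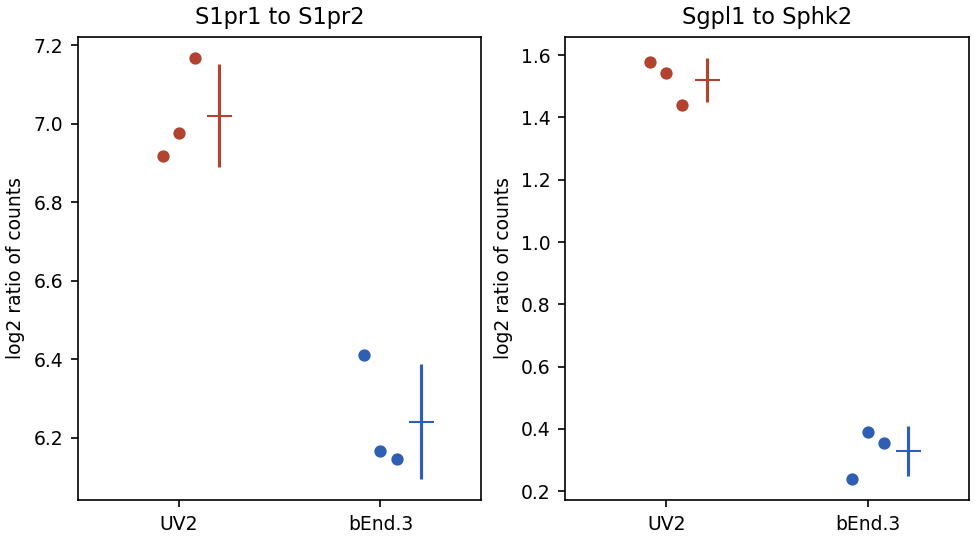
Log2 ratio of S1pr1 to S1pr2 counts and of Sgpl1 to Sphk2 counts in each library (points), with the mean and SD of 3 libraries beside them, UV2 left of bEnd.3; the axes do not start at 0. Both ratios are higher in every UV2 library than in any bEnd.3 library.

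The lines differ in the median log2 fold change of whole chromosomes, so each member is set beside the median of its chromosome. Among genes with an average log2 CPM above 3, the median was 0.25 on chromosome 3, which holds S1pr1, and 0.07 on chromosome 10, which holds Sgpl1 and S1pr4. It was -0.26 on chromosome 9 (S1pr2, S1pr5), -0.25 on chromosome 7 (Sphk2), -0.21 on chromosome 12 (Sgpp1), -0.10 on chromosome 11 (Spns2, Sphk1) and 0.53 on chromosome 13 (S1pr3). With each chromosome's median taken out, the calls of S1pr1 (log2 fold change 0.61, adjusted p = 0.00348, edgeR-QL) and Sgpl1 (log2 fold change 1.10, adjusted p = 1.25e-05) stood. Spns2 (log2 fold change 0.37, adjusted p = 0.0262, edgeR-QL), S1pr2 (0.36, adjusted p = 0.0305) and Sphk2 (0.23, adjusted p = 0.0461) then passed as higher relative to their chromosomes. This made 5 members called higher. Over all 12720 genes tested at this setting, 3868 were called higher and 3978 lower. What lies behind the chromosome medians was not tested.

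**Figure D3:**
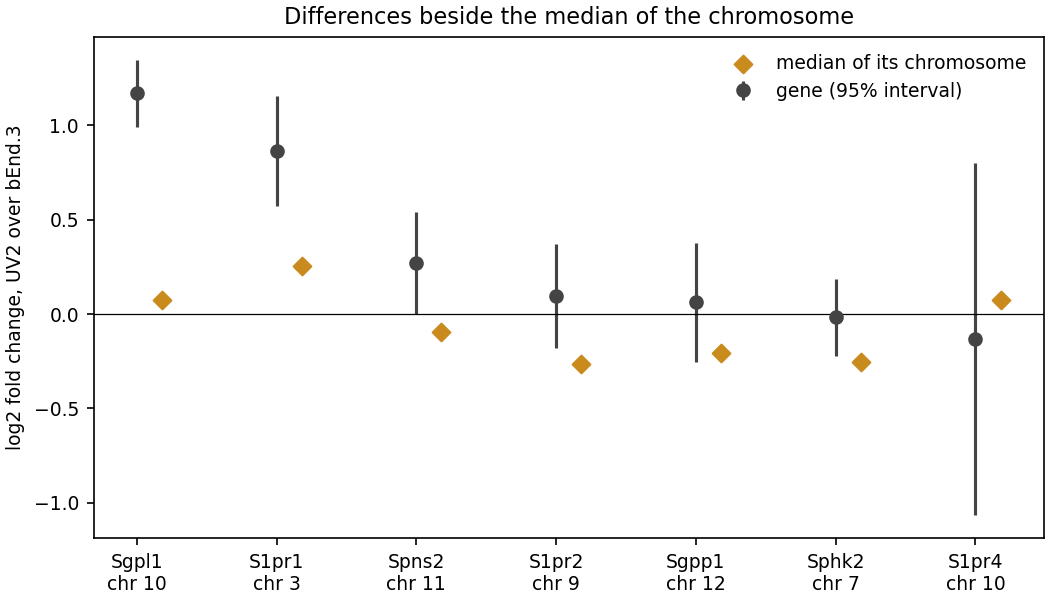
Log2 fold change, UV2 over bEnd.3, of the 7 tested genes (circles, with 95% intervals) beside the median of all genes on the same chromosome with average log2 CPM above 3 (diamonds). Sgpl1 (1.17) and S1pr1 (0.86) lie above their chromosome medians of 0.07 and 0.25, and S1pr2 and Sphk2 lie near 0 beside medians of -0.26 and -0.25.

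The genes whose profile over the 6 libraries was most like that of S1pr1 were Klf6, Las1l and Ept1, by the root mean square difference of centred log2 (CPM + 0.5). Genes named Gm plus digits, Rik clones and pseudogenes were left out of this comparison. Klf6, a zinc finger transcription factor, differed by 0.03 log2 units and had 132 ± 6.84 CPM in UV2 and 73.5 ± 11.4 CPM in bEnd.3. Las1l, a factor of ribosome maturation, differed by 0.05 and had 58.5 ± 2.74 CPM in UV2 and 30.1 ± 4.44 CPM in bEnd.3. Ept1, an ethanolamine phosphotransferase, differed by 0.06 and had 54.9 ± 1.26 CPM in UV2 and 30.6 ± 4.08 CPM in bEnd.3. Among the tested genes kept, 45 lay within 0.1 log2 units of S1pr1, so the 3 are the nearest of many. Sphk1 was not tested and was given no such genes.

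Other genes that handle S1P or its neighbours moved both ways. The list held 13 phosphatases, ceramidases, carriers and transporters, of which 9 were tested, 5 were called higher, 2 lower and 2 did not pass (77.8% called, against 67.1% of all genes). The median log2 fold change of this list was 0.26. Ppap2a (now Plpp1), which encodes lipid phosphate phosphatase 1, had 74.1 ± 5.52 CPM in UV2 and 23.7 ± 1.63 CPM in bEnd.3 (log2 fold change 1.65, SE 0.09, adjusted p = 2.8e-06, edgeR-QL). Its relative Ppap2b (now Plpp3), the lipid phosphate phosphatase 3 that dephosphorylates S1P and lysophosphatidic acid (LPA) outside endothelial cells, was lower, with 196 ± 24.3 CPM in UV2 and 378 ± 87.1 CPM in bEnd.3 (log2 fold change -0.95, SE 0.17). Acer2, a Golgi ceramidase that frees sphingosine, was lower too, with 9.26 ± 1.33 CPM in UV2 and 16.98 ± 1.17 CPM in bEnd.3. Aldh3a2, which oxidises the fatty aldehyde that Sgpl1 releases, rose in UV2 with a log2 fold change of 0.57 (SE 0.10), and the neutral ceramidase Asah2 rose with 0.41 (SE 0.10).

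Enzymes that make and use ceramide, the source of sphingosine, differed in both directions. Of 26 genes 22 were tested, and 9 were called higher, 4 lower and 9 did not pass (59.1% called, against 67.1% of all genes). The median log2 fold change of these genes was 0.08. The ceramide synthase Cers6 had 13.03 ± 0.485 CPM in UV2 and 1 count over the bEnd.3 libraries, a ratio of 997 (95% counting interval 178 to 39400). Cers4, another ceramide synthase, went the other way, with 34.9 ± 0.843 CPM in UV2 and 124 ± 7.02 CPM in bEnd.3 (log2 fold change -1.82, SE 0.07, adjusted p = 5.11e-07, edgeR-QL). Smpd3, the neutral sphingomyelinase that frees ceramide from sphingomyelin, had 47.7 ± 12.3 CPM in UV2 and 1.04 ± 0.549 CPM in bEnd.3 (log2 fold change 5.55, SE 0.35). The glucosylceramide synthase Ugcg had 313 ± 41.2 CPM in UV2 and 54.2 ± 4.23 CPM in bEnd.3 (log2 fold change 2.53, SE 0.11), and the sphingomyelin synthase Sgms2 had 32.8 ± 6.29 CPM in UV2 and 7.31 ± 1.21 CPM in bEnd.3 (log2 fold change 2.17, SE 0.18). The other sphingomyelin synthase, Sgms1, named after its values were seen, did not pass, with 65.9 ± 6.11 CPM in UV2 and 70.9 ± 5.69 CPM in bEnd.3 (log2 fold change -0.11, adjusted p = 0.333, edgeR-QL).

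**Figure D4:**
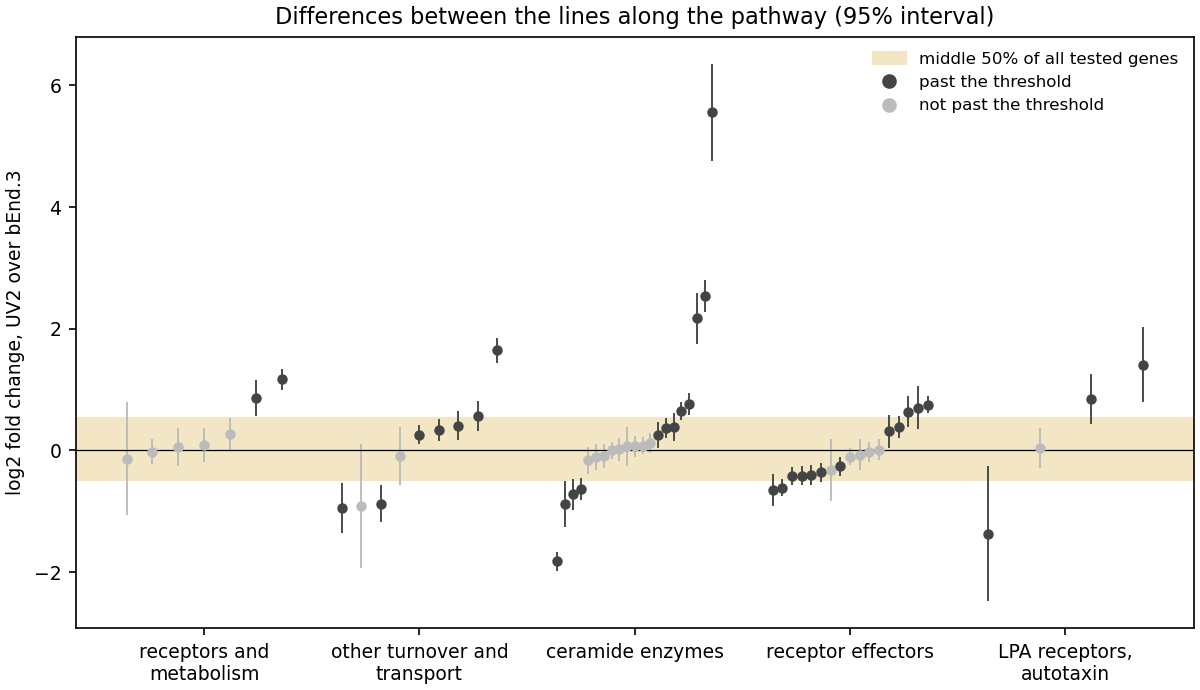
Log2 fold change, UV2 over bEnd.3, of the tested genes of each list in order of size, with 95% intervals; dark points passed an adjusted p under 0.05 and the band spans the lower (-0.48) to the upper (0.53) quartile of all tested genes. Cers6 and Enpp2, with 1 and 0 counts in bEnd.3, are left out; Smpd3 (5.55) is the highest point shown and Cers4 (-1.82) the lowest.

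Genes that relay the receptors' signals were changed in both directions. Of 18 genes 17 were tested, and 5 were called higher, 7 lower and 5 did not pass (70.6% called, against 67.1% of all genes). The median log2 fold change of these genes was -0.10. Gna13, the G13 alpha subunit, through which S1pr2 signals, had 129.8 ± 2.93 CPM in UV2 and 76.9 ± 2.29 CPM in bEnd.3 (log2 fold change 0.76, SE 0.06, adjusted p = 2.16e-05, edgeR-QL). Of the 3 Gi alpha subunits, through which S1pr1 signals, Gnai1 rose with a log2 fold change of 0.70 (SE 0.15) and Gnai3 with 0.64 (SE 0.11). Gnai2, the one with the most counts and named after its values were seen, did not pass, with 1016 ± 74.6 CPM in UV2 and 1006 ± 21.3 CPM in bEnd.3 (log2 fold change 0.01, adjusted p = 0.879, edgeR-QL). Lower in UV2 were Rock2, a kinase that drives actomyosin contraction, with 359 ± 11.6 CPM in UV2 and 565 ± 92.1 CPM in bEnd.3 (log2 fold change -0.65, SE 0.11), and the Gq family subunit Gna11 (log2 fold change -0.61, SE 0.06). With chromosome medians removed, 5 genes of this list were called higher and 4 lower, beside 3868 higher and 3978 lower of all 12720 tested genes.

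LPA is a lysophospholipid related to S1P, and its receptors and autotaxin, the enzyme that makes it outside cells, were set beside the S1P genes. Of 7 genes 5 were tested, and 3 were called higher, 1 lower and 1 did not pass (80% called, against 67.1% of all genes). The median log2 fold change of these genes was 0.85. Enpp2, which encodes autotaxin, had 244, 194 and 92 counts in UV2 and 0 in every bEnd.3 library, at least 192-fold higher in UV2 against the floor of 3 counts over the line. The receptor Lpar2 had 3.15 ± 0.583 CPM in UV2 and 1.20 ± 0.347 CPM in bEnd.3 (log2 fold change 1.41, SE 0.27, adjusted p = 0.00203, edgeR-QL). Lpar4 had 17.1 ± 3.12 CPM in UV2 and 9.57 ± 1.75 CPM in bEnd.3 (log2 fold change 0.85, SE 0.18). The lower one was Lpar1, named after its values were seen because it falls outside the naming rule, with 9, 7 and 3 counts in UV2 and 13, 25 and 16 counts in bEnd.3 (log2 fold change -1.37, adjusted p = 0.0343, edgeR-QL). Its call was lost without UV2 replicate 2 (adjusted p = 0.0620), without UV2 replicate 3 (0.0996), without bEnd.3 replicate 2 (0.127) and in DESeq2 (0.0795).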

How the data were processed

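The authors deposited expected counts per gene symbol, not normalized, for 6 libraries. Trim Galore, STAR, RSEM and the mm10 build are listed in the submitters' processing notes; the sources used here give no versions, annotation or strand setting. RNA came from trypsinised cells and a TruSeq Stranded mRNA kit, per the labels' protocols. At a tolerance of 1e-06, non-whole values made up 8.23% to 8.73% of a library's genes. BALB/c reads can map less well to a C57BL/6 reference, and this was not tested.

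Expected counts were rounded, filtered with filterByExpr (12720 genes kept), scaled by TMM and tested by edgeR's quasi-likelihood method, with cell line as the only term and Benjamini-Hochberg adjustment over all tested genes. CPM used TMM-scaled totals. Merged exon lengths came from GENCODE M21 and positions from RefSeq, matched by symbol or older symbol for 98.5% and 99.5% of genes. The SE is the log2 fold change over the root of F. The members and lists were chosen with earlier results of these data known. Besides members, the rule named per list the highest and lowest called gene with at least 1 CPM and up to 3 more by size, and the 3 genes most like S1pr1. The fits were tested on simulated counts at a fixed dispersion, with far fewer changed genes than the share called here. That test therefore cannot give the error rates in these data. Replicates of a line differed beyond sampling noise (chi-square over degrees of freedom 11.3 to 38.4).

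For the replicate block only, replicate numbers from the titles were taken to pair the libraries. Deviations from the line means correlated across genes with r = 0.17, 0.30 and 0.35 for numbers 1, 2 and 3. Unmatched numbers gave r from -0.36 to 0.10. The main fit did not use this pairing. Alternatives were other size factors, total counts, no filter, at least 1 CPM in 3 libraries, the replicate block, DESeq2, limma-voom, removal of chromosome medians, a pseudocount of 5 in place of 0.5 in the ratios, and each library left out. Tests ran in R 4.3.3 with DESeq2 1.42.0, limma 3.58.1 and edgeR 4.0.16; tables and figures were made with matplotlib 3.10.9 under Python 3.11.15.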

Additional observations from a re-analysis of the deposited data

How the results depend on the processing

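Of 570 alternative values for 43 results, 543 kept their direction and their side of the threshold or stayed within 1.5 times the count; the cause of the others was not tested. With chromosome medians removed, 5 members were called higher, 4 receptor effectors lower and 2 LPA genes lower, and Sphk2 turned to 0.23. At that setting 3868 of all 12720 tested genes were called higher and 3978 lower. No LPA gene was called lower (0) with at least 1 CPM in 3 libraries or in DESeq2, and 0 to 1 were with a library left out. By total counts Sgpp1 turned to -0.0035. With a library left out, Sphk2 ranged from -0.0963 to 0.0348, S1pr4 from -0.53 to 0.17, S1pr1 from 0.77 to 1.01 and Sgpl1 from 1.12 to 1.23. The difference in the log2 ratio of Sphk1 to Sgpl1 was -0.75 with a pseudocount of 5 and -0.42 to 0.87 with a library left out. With the replicate block, Spns2 was called higher (0.28, adjusted p = 0.0350, edgeR's quasi-likelihood test) and no other call changed among the members tested, the pathway genes named by the rule and Lpar1. For ratios the block permits no p below 0.25 with 3 pairs. Depth limits what can be said of S1pr3, S1pr4, S1pr5 and Sphk1.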
